A study of Mus musculus with 18 samples.

Results

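RNA-seq counts of 10 genes of the hyaluronan and large proteoglycan matrix were examined in cultured mouse tail tendon fibroblasts (TFs). The genes are the large proteoglycans *Acan* and *Vcan*, the hyaluronan synthases *Has1*, *Has2* and *Has3*, the hyaluronan receptor *Cd44*, and the ADAMTS proteinases *Adamts1*, *Adamts4*, *Adamts5* and *Adamts9*. They were chosen by name, 1 row of the count table each, out of 55491 rows. The rule that picked their rows used no measured value, but the list was drawn up with earlier results of these data known.

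TFs had been grown out of tail tendons of mice aged 4 to 6 months on a collagen gel and passaged. They were seeded on plastic, coated with collagen I per the study's methods. Culture lasted 4 days in 20% O2 (normoxia) or 1% O2 (hypoxia). There were 3 arms with 3 replicates at each O2 level, 18 libraries in all. Ctrl TFs came from Cre-negative mice, whose genotype is labelled wild-type. In the breeding scheme of the study's methods, Cre-negative controls are Hif1a flox/flox. cKO TFs came from Scx-Cre; Hif1a fl/fl mice, in which Cre recombinase made in *Scx*-expressing tendon cells removes part of *Hif1a*, the oxygen-regulated subunit of hypoxia-inducible factor 1. The third arm was Ctrl TFs given Cre gesicles, vesicles that carry Cre protein into cultured cells. Replicates are described as TFs of 3 mice per group.

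The depth was 6857558 counts in cKO 1% O2 replicate 1 and 26967440 to 51806453 counts in the other 17 libraries. The *Hif1a* row was not lower in cKO libraries (294 to 503.5 CPM, the counts scaled to a common library total with TMM factors) than in Ctrl libraries (334.5 to 488 CPM), and gene counts cannot show a deletion inside the gene. In gesicle-treated libraries *Hif1a* was at 340.9 to 397.3 CPM. The paper reports lower *Hif1a* expression by qPCR in cultured cKO TFs, at a later time than these libraries. Cre counts were found in 5 of 6 cKO libraries, at 1 to 5 counts, and in no Ctrl or gesicle-treated library. All 12 tendon fibroblast markers on the list examined had a mean above 1 CPM in each of the 6 groups. Of the chondrocyte markers, *Snorc* was at 0 in all 18 libraries, *Col9a1* and *Matn1* were at 0 in 17, and *Col2a1* reached at most 3.68 CPM. Others on that list were detected, with *Sox9* at 20.6 to 50.8 CPM and *Chad* at up to 4.05 CPM. *Matn3* exceeded 3 counts in 18 libraries and *Col11a2* in 17. *Ckm*, *Cd3e* and *Ibsp*, markers of muscle, T cells and bone cells, were at 0 in all 18. Other markers on the muscle, immune and bone cell lists were detected. *Acta1* was at 9.32 to 41.8 CPM, *Lyz2* at 8.57 to 22.2 CPM and *Bglap2* at 0.319 to 4.3 CPM. All 6 mural cell markers examined had a mean above 1 CPM in each group. In bulk RNA, fewer cells of a type and less RNA per cell cannot be told apart.

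Hyaluronan is a long unbranched polysaccharide that is spun out through the plasma membrane by hyaluronan synthases and binds to CD44 on the cell surface. Aggrecan and versican carry many chondroitin sulfate chains and bind to hyaluronan. Link proteins stabilise this binding, and large hydrated complexes form around cells. ADAMTS proteinases cut the core proteins of these proteoglycans. In tendon, versican and aggrecan are found around cells and in compressed regions, and their turnover by ADAMTS proteinases is part of the upkeep of the matrix.

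Set against exon length, the levels of the 10 genes spanned several orders of magnitude. Exon length is the union of all annotated exons of a gene, not the length of the transcripts expressed. Whether the order and shares of the genes hold with other lengths was not tested. *Adamts1* was the most abundant, with a mean of 115 CPM per kilobase of exon over the 18 libraries (range 40.1 to 247). *Cd44* followed at 68.4 (54.5 to 93.0), *Adamts5* at 45.1 (21.4 to 69.3) and *Has2* at 22.1 CPM per kilobase (13.2 to 29.1). The ranges of each of these neighbours overlapped, although *Adamts1* was above *Cd44* in 15 of the 18 libraries, *Cd44* above *Adamts5* in 17 and *Adamts5* above *Has2* in all 18. *Has2* and the next gene, *Vcan*, did not overlap.

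Lower on the same scale of CPM per kilobase stood *Vcan* at 3.72 (1.11 to 6.82), *Adamts4* at 1.59 (0.709 to 2.44), *Has1* at 0.246 (0.0573 to 0.468) and *Adamts9* at 0.150 (0.0238 to 0.311). *Vcan* was above *Adamts4* in 16 of the 18 libraries and *Has1* above *Adamts9* in 12, so these neighbours overlapped, whereas *Adamts4* and *Has1* did not. *Has3* and *Acan* were at the limit of detection. *Has3* had 29 counts in all, was at 0 in 8 libraries, and exceeded the floor of 3 counts in only 2, Ctrl gesicles 20% O2 replicates 2 and 3, with 7 counts each.

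*Acan*, the aggrecan gene, gave 1 count in the 18 libraries together, in Ctrl gesicles 20% O2 replicate 1. Its expression was therefore not detectable at this depth, where 3 counts correspond to between 0.0592 and 0.426 CPM depending on the library. The other 8 genes exceeded 3 counts in every library and passed the filter on low counts, so they are the genes tested, and no test was made of *Acan* or *Has3*.

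**Figure D1:**
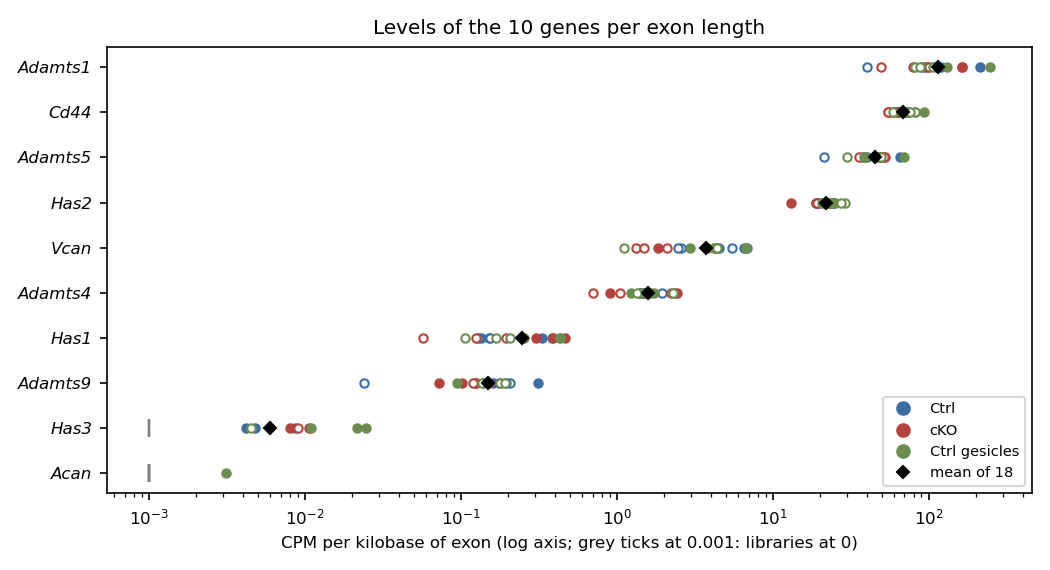
Level of each of the 10 genes in CPM per kilobase of exon (log axis), 1 point per library, filled in 20% O2 and open in 1% O2, coloured by arm, with the mean of 18 libraries as a diamond. *Adamts1* to *Has2* lie above 13 CPM per kilobase in every library, and libraries at 0 for *Has3* (8) and *Acan* (17) are drawn as grey ticks at 0.001, with the *Acan* mean below the axis.

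*Has2* made up most of the synthase RNA. Of the summed length-scaled level of the 3 synthases, *Has2* held 98.8% (range 96.5% to 99.7% over the 18 libraries). *Has1* held 1.41% in Ctrl 20% O2 and 0.634% in Ctrl 1% O2, 2.23% and 0.567% in cKO, and 1.61% and 0.595% in gesicle-treated cells. Of the 4 ADAMTS genes, *Adamts1* held 69.5% of the summed length-scaled level, *Adamts5* 29.4%, *Adamts4* 1.08% and *Adamts9* 0.0959%. The *Adamts1* share was 74.1% ± 2.36 (SD, n = 3) in Ctrl 20% O2 and 66.9% ± 2.72 in Ctrl 1% O2, 72.1% ± 6.86 and 61.6% ± 3.83 in cKO, and 74.4% ± 4.79 and 67.9% ± 4.05 in gesicle-treated cells. The mean share was thus lower in 1% O2 in each arm, with *Adamts5* taking most of the difference. These shares were not tested.

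The genes lie on 9 chromosomes of GRCm38. *Adamts1* (chr16:85793827-85803113) and *Adamts5* (chr16:85856173-85901828) are neighbours on the minus strand of chromosome 16. *Vcan* (chr13:89655312-89742509) and *Has1* (chr17:17843323-17855205) also lie on minus strands. *Has2* (chr15:56665627-56694539, minus strand) overlaps *Has2os* (chr15:56689944-56778399, plus strand), its antisense RNA, which averaged 2.77 CPM beside 93.5 CPM for *Has2*. Whether the counting used strand is not given in the sources used here, so reads of the overlap cannot be assigned between these genes with certainty.

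Hypoxia was compared with normoxia first. Averaged over the 3 arms, *Has1* and *Adamts1* fell in 1% O2, and the other 6 genes tested did not pass the test. These 2 of 8 are to be read beside 10.5% of all 16174 genes called in either direction, and 5.13% called lower, in the same comparison. Calling required both a 1.5-fold difference and edgeR's quasi-likelihood p, adjusted over all genes tested after Benjamini and Hochberg, to fall under 0.05. The median log2 fold change was −0.16 for the 8 genes and −0.02 for all genes.

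*Has1*, a synthase that is inducible in many fibroblasts, was at 1.5, 1.74 and 0.608 CPM in Ctrl 20% O2 and at 0.580, 0.685 and 0.700 CPM in Ctrl 1% O2. It was at 1.36, 2.11 and 1.77 CPM in cKO 20% O2 and at 0.569, 0.259 and 0.875 CPM in cKO 1% O2. In gesicle-treated cells it was at 1.97, 1.97 and 1.14 CPM in 20% O2 and at 0.755, 0.938 and 0.481 CPM in 1% O2. All 1% O2 libraries lay below all 20% O2 libraries in the cKO and gesicle arms, and in Ctrl the ranges overlapped through replicate 3 in 20% O2.

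The mean *Has1* level over the arms was 0.649 CPM in 1% O2 and 1.57 CPM in 20% O2, a log2 fold change of −1.27 ± 0.26 (SE; 95% interval −1.81 to −0.72; edgeR adjusted p = 0.00245). The gene is low, with 4 to 87 counts per library. Its call held without each of the 18 libraries in turn. Within single arms the log2 fold change was −0.96 in Ctrl (adjusted p = 0.341), −1.60 in cKO (adjusted p = 0.111, and 0.0318 with DESeq2, which called 5.63% of all genes there) and −1.22 in gesicle-treated cells (adjusted p = 0.149).

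*Adamts1* encodes a secreted proteinase that cuts both versican and aggrecan. Its level was 520.4, 635 and 1125 CPM in Ctrl 20% O2 and 212, 488 and 599.9 CPM in Ctrl 1% O2. In cKO it was 869, 509 and 864 CPM in 20% O2 and 263.5, 419 and 535.5 CPM in 1% O2. In gesicle-treated cells it was 472, 694 and 1311 CPM in 20% O2 and 430.5, 565 and 467 CPM in 1% O2. The groups overlapped in each arm, and the spread in 20% O2 was wide, with replicate 3 the highest of its group in Ctrl and gesicle-treated cells.

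Averaged over the arms, *Adamts1* was at 442 CPM in 1% O2 and 778 CPM in 20% O2, a log2 fold change of −0.82 ± 0.24 (SE; 95% interval −1.33 to −0.31; edgeR adjusted p = 0.0212). Within arms it was −0.80 in Ctrl, −0.87 in cKO and −0.76 in gesicle-treated cells, none of them called. The call was lost without Ctrl gesicles 20% O2 replicate 3, where the log2 fold change was −0.65 (adjusted p = 0.0505), and in the 12 Ctrl and cKO libraries alone (−0.84, adjusted p = 0.0703).

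*Vcan*, the versican gene, was at 98.6, 94.7 and 65.6 CPM in Ctrl 20% O2 and at 37.3, 79.8 and 35.9 CPM in Ctrl 1% O2. In cKO it was at 62.8, 26.7 and 54.9 CPM in 20% O2 and at 19.2, 21.7 and 30.2 CPM in 1% O2. In gesicle-treated cells it was at 42.4, 97.0 and 61.0 CPM in 20% O2 and at 62.0, 63.6 and 16.0 CPM in 1% O2. The ranges of 20% and 1% O2 overlapped in every arm, by 1 library in Ctrl and cKO and more widely with gesicles.

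The averaged log2 fold change of *Vcan* was −0.76 ± 0.27 (SE; 95% interval −1.33 to −0.18), from means of 67.1 CPM in 20% O2 and 40.6 CPM in 1% O2. Its edgeR adjusted p of 0.0512 was just over the threshold. The gene was called with the replicate block (−0.79, edgeR adjusted p = 0.0171), with DESeq2 (adjusted p = 0.0162), which called 12.1% of all genes in this comparison, and without any 1 of 7 libraries. *Vcan* transcripts are long and low in GC, at the 97.4th percentile of exon length and the 20.1st percentile of GC content of the genes tested. With offsets for GC content and exon length, the difference was −0.53 (adjusted p = 0.0492), under the fold change minimum.

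Libraries with the same arm and number were also set side by side at the 2 O2 levels. *Adamts1* was lower in 1% O2 in 9 of 9 such pairs, at 0.303 to 0.912 of the 20% O2 level. *Vcan* was lower in 8 of 9 (0.263 to 1.46) and *Has1* in 8 of 9 (0.123 to 1.15). *Has2* was higher in 8 of 9 pairs, at 0.968 to 1.46 of the 20% O2 level, and the remaining 4 genes split between the directions. Ctrl and gesicle-treated libraries of the same number may come from the same mice, so the 9 pairs may not be separate units. The share of all genes with such counts of pairs was not examined. Of the other cell types examined, the summed endothelial markers were at 25.8 to 76.6 CPM in 20% O2 and 11.5 to 40.0 CPM in 1% O2, of which *Tek* alone exceeded a mean of 1 CPM, while *Cdh5* and *Pecam1* reached at most 0.650 and 0.291 CPM. Their part in these differences was not tested.

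**Figure D2:**
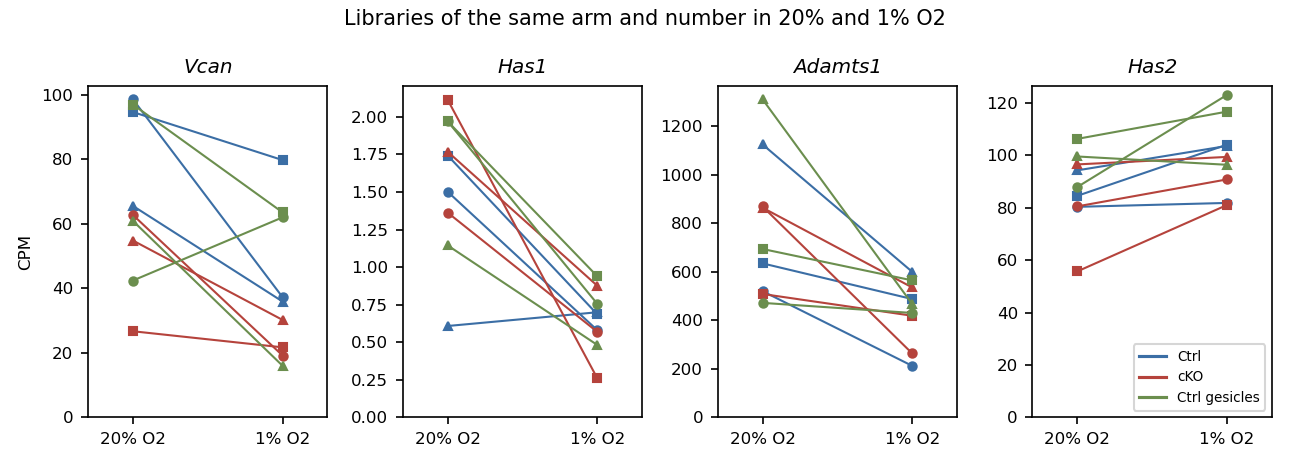
Level in CPM of *Vcan*, *Has1*, *Adamts1* and *Has2* in 20% and 1% O2, with a line for each of the 9 pairs of libraries of the same arm and number (circle 1, square 2, triangle 3). All 9 lines fall for *Adamts1*, 8 fall for *Vcan* and *Has1*, and 8 rise for *Has2*.

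The sequence just upstream of the RefSeq transcript start (build GRCm38.p6, 250 bases, 5′ to 3′ on the gene's strand) is shown for these 3 genes, the 3 with the largest averaged differences between O2 levels. Capitals mark matches on either strand to ACGTG or GCGTG, the core letters bound by hypoxia-inducible factors. The windows are chr13:89742513-89742762 for *Vcan*, chr17:17855189-17855438 for *Has1* and chr16:85803114-85803363 for *Adamts1*, all on the minus strand.
Vcan: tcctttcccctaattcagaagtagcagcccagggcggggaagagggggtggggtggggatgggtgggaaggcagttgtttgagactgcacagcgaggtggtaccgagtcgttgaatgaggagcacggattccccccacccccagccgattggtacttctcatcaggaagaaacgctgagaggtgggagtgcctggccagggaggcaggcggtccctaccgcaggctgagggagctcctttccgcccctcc
Has1: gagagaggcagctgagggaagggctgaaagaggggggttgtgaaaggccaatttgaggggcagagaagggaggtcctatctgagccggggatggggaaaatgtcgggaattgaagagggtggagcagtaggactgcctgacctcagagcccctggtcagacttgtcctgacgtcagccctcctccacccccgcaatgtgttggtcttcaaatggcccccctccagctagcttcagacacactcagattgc
Adamts1: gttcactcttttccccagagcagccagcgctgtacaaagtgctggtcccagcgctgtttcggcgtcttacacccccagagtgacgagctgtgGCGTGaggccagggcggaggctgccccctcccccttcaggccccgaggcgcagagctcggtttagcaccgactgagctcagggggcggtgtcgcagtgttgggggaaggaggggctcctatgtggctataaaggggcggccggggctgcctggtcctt

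The *Adamts1* window held 1 GCGTG, 158 bases before the start, and those of *Vcan* and *Has1* held no match. Of the 6 genes with a window in the table, *Cd44* (ACGTG, 29 bases before the start), *Adamts1* and *Adamts9* (GCGTG, 44 bases before) had a match and *Acan*, *Vcan* and *Has1* did not. Among 32851 promoter windows of this length, 16.6% held ACGTG, 28.2% GCGTG and 38.6% either, so 3 of 6 is a description only.

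*Has2*, the synthase with nearly all of the family's RNA, was at means of 86.4 ± 7.14 CPM (SD, n = 3) in Ctrl 20% O2 and 96.5 ± 12.7 CPM in Ctrl 1% O2. It was at 77.6 ± 20.6 and 90.4 ± 9.18 CPM in cKO, and at 97.9 ± 9.30 and 112 ± 13.9 CPM in gesicle-treated cells. The averaged log2 fold change was 0.19 ± 0.10 (SE; 95% interval −0.02 to 0.40; edgeR adjusted p = 0.166). A difference larger than 0.40 on the log2 scale lay outside this interval, as did a fall of more than 0.02.

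*Cd44* had the smallest ratio of highest to lowest library of the 8 genes. Its libraries ranged from 370 to 630 CPM, and its averaged log2 fold change in 1% O2 was −0.08 (95% interval −0.25 to 0.10; edgeR adjusted p = 0.521). With the GC and length offsets this became 0.05, so no direction is given.

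*Adamts5*, the main aggrecanase of mouse cartilage, was at 509 ± 168 CPM (SD, n = 3) in Ctrl 20% O2 and 403 ± 159 CPM in Ctrl 1% O2. It was at 540 ± 23.3 and 485 ± 88.6 CPM in cKO, and 527 ± 191 and 453 ± 112 CPM in gesicle-treated cells. Its averaged log2 fold change was −0.24 (95% interval −0.61 to 0.14; edgeR adjusted p = 0.35), which did not pass the test, although its mean was lower in 1% O2 in each arm.

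*Adamts4*, the other classical aggrecanase, lay between 3.41 and 11.7 CPM, with an averaged log2 fold change of −0.02 (95% interval −0.48 to 0.44). *Adamts9*, a proteinase that cuts versican and aggrecan, lay between 0.359 and 4.68 CPM, with −0.05 (−0.69 to 0.60). Both values changed sign when single libraries were left out and with the GC and length offsets (0.03 and 0.23). The lowest *Adamts9* value, 0.359 CPM, was that of Ctrl 1% O2 replicate 1, which was also the lowest library for *Adamts1* and *Adamts5*.

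**Figure D3:**
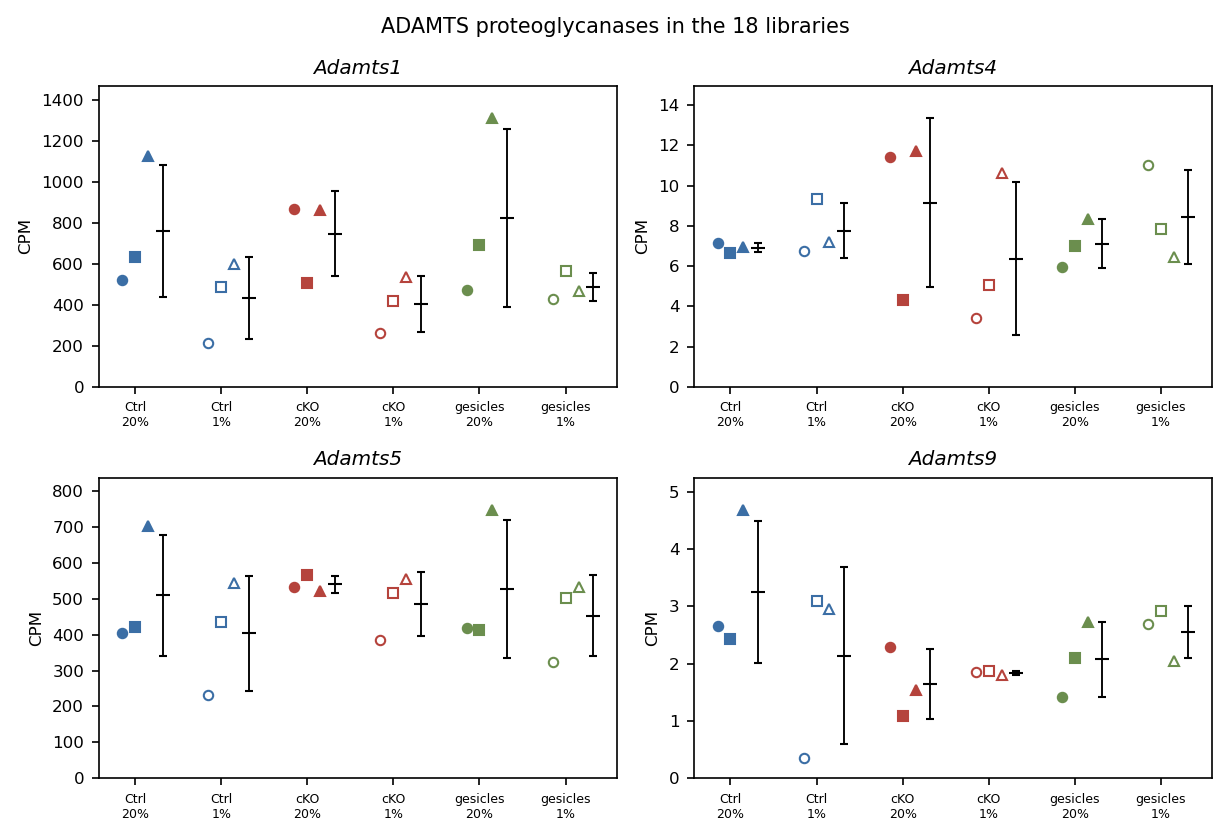
Level in CPM of the 4 ADAMTS genes in each library (circle, square and triangle for replicates 1, 2 and 3; filled in 20% O2, open in 1% O2), with the mean and SD of each group of 3 beside the points. *Adamts1* means are 406 to 487 CPM in the 3 groups in 1% O2 and 747.5 to 826 CPM in the 3 groups in 20% O2, and the points overlap.

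Within each arm alone, edgeR called none of the 8 genes for O2, while DESeq2 called *Has1* in cKO. The share of all genes called by edgeR was 1.88% in Ctrl, 2.10% in cKO and 2.41% in gesicle-treated cells. *Has1* in cKO and in gesicle-treated cells was the single one of the 8 genes tested whose 3 libraries in 1% O2 all lay below the 3 in 20% O2, which also held for 10.2% and 11.0% of all genes in those arms. None of the 8 did so in Ctrl, where the share was 13.4%.

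Whether the response to hypoxia differed between the arms was tested as the difference of 2 responses. These counts do not show *Hif1a* deletion in the cKO or the gesicle arm, so the arms are compared as labelled. None of the 8 genes was called for cKO minus Ctrl or for gesicles minus Ctrl. In edgeR no gene of the whole table was called in either comparison, while 1.84% and 1.24% passed at the unadjusted p with the same fold minimum, and DESeq2 called 2 genes and 0 genes. For *Vcan* the cKO response was 0.25 lower than the Ctrl response on the log2 scale, with a 95% interval of −1.33 to 0.84. For *Has1* the difference was −0.64 (−2.11 to 0.83). Intervals of this width do not show that the arms responded alike.

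cKO TFs were then compared with Ctrl TFs. Averaged over the 2 O2 levels, *Vcan* was lower in cKO, and it was the 1 member of 8 called, beside 3.78% of all 15850 genes called in either direction and 2.68% called lower. This test counted the libraries in 20% and 1% O2 as separate samples, although they may come from the same mice. The call was lost when such libraries were summed. Mean *Vcan* was 35.9 CPM in cKO and 68.7 CPM in Ctrl, a log2 fold change of −0.97 ± 0.25 (SE; 95% interval −1.52 to −0.43; edgeR adjusted p = 0.0476). Every cKO library lay below every Ctrl library at the same O2 level, at 26.7 to 62.8 against 65.6 to 98.6 CPM in 20% O2 and 19.2 to 30.2 against 35.9 to 79.8 CPM in 1% O2. By this measure alone 10.3% and 15.2% of all genes were lower in cKO.

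The *Vcan* call lay close to the threshold. It was lost without any 1 of 10 of the 12 libraries (log2 fold change −1.09 to −0.74, adjusted p up to 0.117), all but Ctrl 1% O2 replicate 1 and cKO 20% O2 replicate 1, in the fit of all 18 libraries (adjusted p = 0.0762), and when the 2 libraries of each arm and number were summed (−0.77, adjusted p = 0.334). The Ctrl groups held 2 libraries of 3 with *Xist* counts and the cKO groups 1 of 3, and with sex as a covariate the value was −0.92 (adjusted p = 0.0896). With the GC and length offsets it was −0.67 (adjusted p = 0.0447). At single O2 levels, *Vcan* was not called, at −0.85 (adjusted p = 0.325) in 20% O2 and −1.10 (adjusted p = 0.22) in 1% O2. No member was called at either level, where 0.347% and 0.0379% of all genes were.

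*Cd44* was lower in cKO by a smaller amount that did not pass the test. Its means were 483 ± 70.3 CPM (SD, n = 3) in Ctrl 20% O2 and 470 ± 35.2 CPM in Ctrl 1% O2, against 406 ± 22.6 and 392 ± 37.8 CPM in cKO. The averaged log2 fold change was −0.26 ± 0.09 (SE; 95% interval −0.46 to −0.06; edgeR adjusted p = 0.0983), and −0.08 with the GC and length offsets. *Adamts9* was at 2.65, 2.42 and 4.68 CPM in Ctrl 20% O2 and at 2.29, 1.09 and 1.54 CPM in cKO 20% O2. These groups did not overlap, and 10.3% of all genes were likewise lower in cKO without overlap. The log2 fold change of *Adamts9* was −0.998 (edgeR adjusted p = 0.419). In 1% O2 its ranges overlapped, and the averaged value was −0.61 (−1.51 to 0.29), which was −0.21 with the GC and length offsets and −0.16 with sex as a covariate.

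The synthases gave averaged values of 0.12 (95% interval −0.61 to 0.86) for *Has1* and −0.13 (−0.41 to 0.15) for *Has2* in cKO against Ctrl. Neither passed the test, at edgeR adjusted p of 0.832 and 0.517. The *Has1* value changed sign without single libraries.

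**Figure D4:**
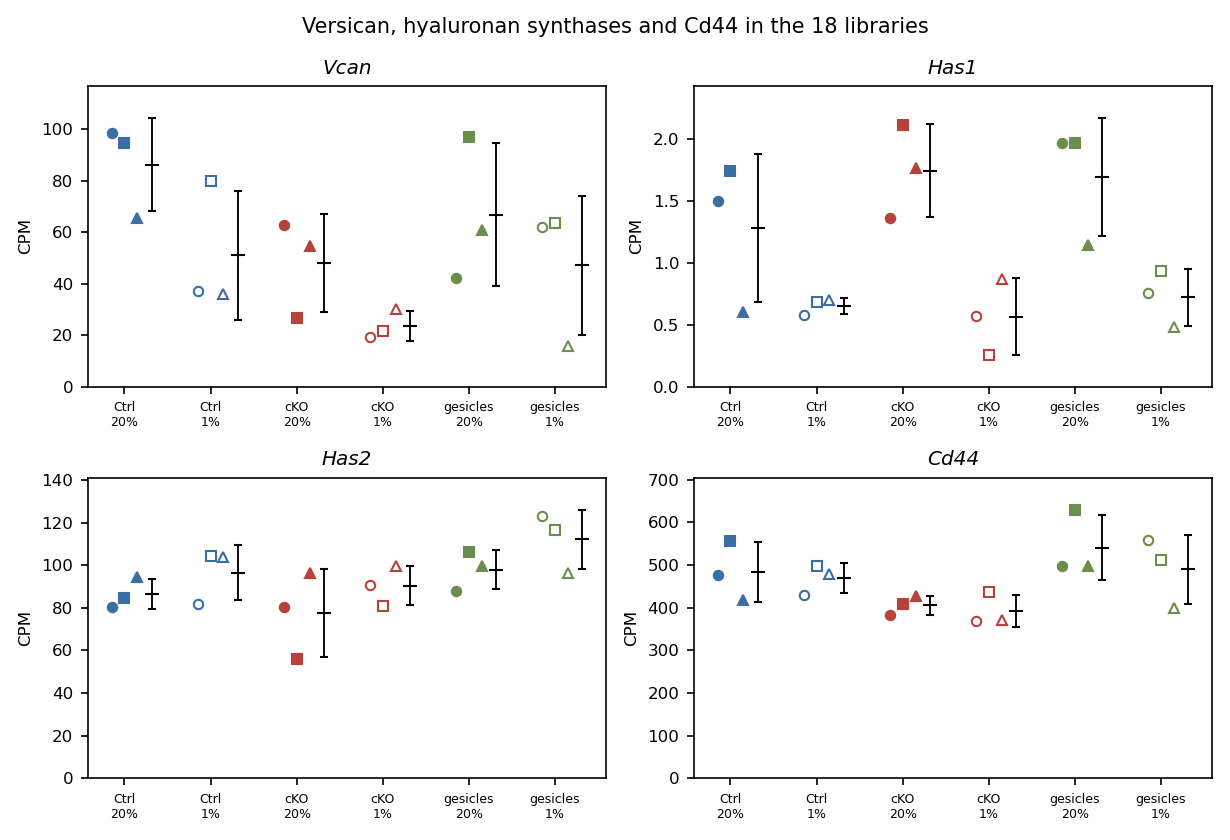
Level in CPM of *Vcan*, *Has1*, *Has2* and *Cd44* in each library (circle, square and triangle for replicates 1, 2 and 3; filled in 20% O2, open in 1% O2), with the mean and SD of each group of 3. *Vcan* is at 19.2 to 62.8 CPM in the cKO groups and 35.9 to 98.6 CPM in the Ctrl groups, and *Has1* is below 1 CPM in every library in 1% O2.

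Gesicle-treated TFs were compared with the same Ctrl libraries that served the cKO comparison, so these values share their controls. None of the 8 genes was called in 20% O2, in 1% O2 or averaged, beside 0.0247%, 0% and 0.0495% of all genes. In 1% O2, where edgeR called 0 genes, 1.45% passed at the unadjusted p with the same fold minimum, and DESeq2 called 0. The averaged log2 fold change was −0.24 (95% interval −0.94 to 0.45) for *Vcan*, 0.27 (−0.38 to 0.92) for *Has1* and 0.20 (−0.06 to 0.45) for *Has2*. The difference between gesicle-treated and cKO cells was not tested.

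**Figure D5:**
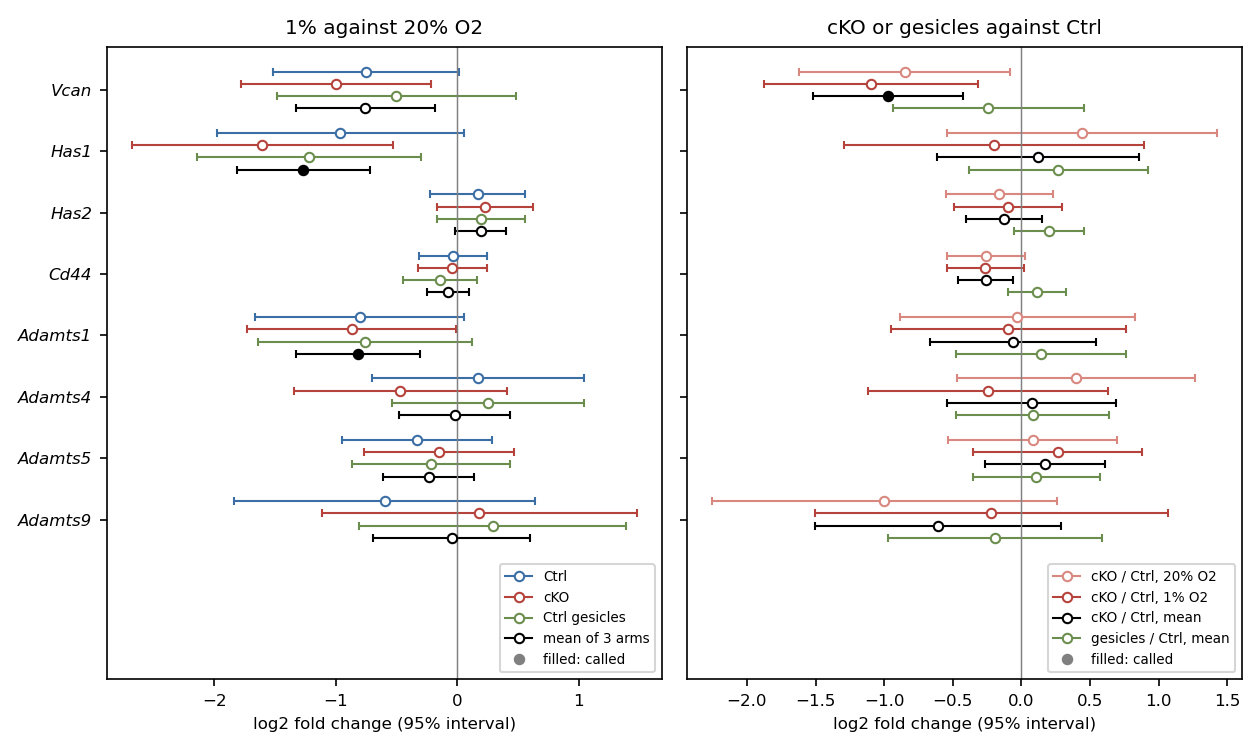
Log2 fold change with 95% interval for the 8 genes tested, at left 1% against 20% O2 in each arm and averaged, at right cKO against Ctrl at each O2 level and averaged, and gesicles against Ctrl averaged. Filled points mark calls, which are *Has1* (−1.27) and *Adamts1* (−0.82) for O2 and *Vcan* (−0.97) for cKO against Ctrl, all averaged.

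Around the 10 genes, a list of 73 others of the same pathway was read in the same fits, of which 60 were tested. It holds hyaluronan breakdown, hyaluronan binding and cross-linking, other large proteoglycans, other ADAMTS proteinases and their regulators, UDP-sugar supply, and chondroitin sulfate synthesis. Averaged over the arms, 2 of the 60 were higher and 7 lower in 1% O2, beside 5.36% and 5.13% of all genes, and the median of the list was −0.19 on the log2 scale. No gene of hyaluronan breakdown (4 tested) or UDP-sugar supply (7 tested) was called.

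Among genes of hyaluronan binding and cross-linking, 1 of 9 rose and 2 fell. *Ptx3*, a pentraxin that helps to cross-link hyaluronan, rose by 0.85 on the log2 scale (353 against 195 CPM, edgeR adjusted p = 0.00223). *Hapln1*, a link protein that stabilises the binding of versican and aggrecan to hyaluronan, fell by 0.91 (2.31 against 4.27 CPM, adjusted p = 0.0188). *Tnfaip6*, which transfers heavy chains onto hyaluronan, fell by 0.93 (adjusted p = 0.0325), a call that was lost without any 1 of 11 libraries.

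Of the other large proteoglycans, *Hspg2*, the perlecan gene, fell by 0.68 (42.2 against 67.4 CPM, edgeR adjusted p = 0.0366), which was −0.42 with the GC and length offsets and was lost without any 1 of 9 libraries. Of the other ADAMTS genes, *Adamts7* fell by 1.05 (adjusted p = 0.0031), and *Adamts8* had a log2 fold change of −2.24 (0.203 against 0.8 CPM, adjusted p = 0.00692), with 3 of its 9 libraries in 1% O2 at or under 3 counts. *Timp4*, a metalloproteinase inhibitor, rose by 1.85 at a low level (0.938 against 0.257 CPM, adjusted p = 0.000219). In chondroitin sulfate synthesis 2 of 19 fell, the sulfotransferase gene *Chst11* by 0.82 (adjusted p = 0.0198) and the sulfate transporter gene *Slc26a2* by 0.74 (adjusted p = 0.00141). The calls of *Ptx3*, *Hapln1*, *Adamts7*, *Adamts8*, *Timp4*, *Chst11* and *Slc26a2* each held without any 1 library. In the Ctrl and cKO arms alone, *Hapln1* (adjusted p = 0.0582) and *Chst11* (0.0903) were lost, and with the replicate block *Adamts7* (0.0528) and *Chst11* (0.161). With the GC and length offsets, *Slc26a2* was at −0.51, under the fold minimum.

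Within arms, the list gave calls for O2 only in cKO, where *Ptx3* rose by 1.21 (edgeR adjusted p = 0.0453), *Timp4* rose by 2.36 (adjusted p = 0.0453) and *Slc26a2* fell by 0.94 (adjusted p = 0.0377). Each of these was lost without any 1 of at least 8 of the 12 libraries, and whether the arms differed in them was not established, since no gene was called for the difference.

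In cKO against Ctrl averaged over O2, none of the 60 was higher and 5 were lower, beside 1.10% and 2.68% of all genes, and the median of the list was −0.14. *Cspg4*, a membrane proteoglycan, fell by 1.46 (13.5 against 42.0 CPM, edgeR adjusted p = 0.0302). *Adamts6* fell by 0.97 (adjusted p = 0.00435), a call that held without any 1 library but not when the 2 libraries of each arm and number were summed (−0.93, adjusted p = 0.0713). *Adamts6* was also called in 20% O2 alone, at −1.04 (7.69 against 15.8 CPM, adjusted p = 0.0408), which was lost without any 1 of 10 libraries.

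*Furin*, whose proteinase activates pro-ADAMTS enzymes, fell by 0.82 (76.0 against 131 CPM, edgeR adjusted p = 0.0415), and *Chpf2*, a chondroitin polymerizing factor, fell by 0.64 (adjusted p = 0.0105). *Chst3*, a chondroitin sulfotransferase, was called lower (adjusted p = 0.0344) from 40 and 43 counts in the Ctrl groups in 20% and 1% O2 and 4 and 11 counts in the cKO groups, so no fold is given. The calls of *Cspg4*, *Furin* and *Chst3* were lost without any 1 of 8, 9 and 9 of the 12 libraries, and that of *Chpf2* without cKO 20% O2 replicate 2 (−0.57, under the fold minimum). With the GC and length offsets, *Furin* was at −0.46 and *Chpf2* at −0.38, both under the fold minimum. *Cspg4* is also one of 6 mural cell markers examined, whose summed level was 1183 to 2202 CPM in Ctrl and 1028 to 1716 CPM in cKO. The summed skeletal muscle markers were lower in cKO without overlap, at 9.53 to 15.5 against 22.4 to 42.1 CPM in 20% O2 and 16.6 to 20.0 against 23.9 to 30.2 CPM in 1% O2. Of all single genes, 10.3% in 20% O2 and 15.2% in 1% O2 were lower in cKO without overlap. Of the 5 muscle markers *Acta1* alone exceeded a mean of 1 CPM, and *Ckm* was at 0. The part of such cells in the *Vcan* and pathway values was not tested. No gene of the list was called in 1% O2, in the gesicle comparisons or in the differences of response.

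Across the 18 libraries, the genes most like each member in log2 level were also listed as a description. *Vcan* went most closely with *Nup153*, *Slk* and *Cep295* (Pearson r = 0.96 each over 18 libraries), which lie at the 79.8th, 86.0th and 98.3rd percentile of exon length and the 31.1st, 27.6th and 21.5th percentile of GC content. *Has1* went with *Nipal1* (0.93), *Gnpda1* (0.90) and *Dusp10* (0.89), and *Has2* with *Galnt13* (0.91), *Abi3bp* (0.90) and *Elmod2* (0.86). *Cd44* went with *Ereg* (0.89), *Ncoa7* and *Xxylt1* (0.84 each). Long exons or low GC were not particular to the genes most like *Vcan*. Those most like *Adamts9*, named below, were also long, and *Galnt13*, *Elmod2*, *Ereg* and *Ncoa7* were low in GC.

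Among the ADAMTS genes, *Adamts1* was most like *Sema3d*, *Slit3* (0.92 each) and *Adamts12* (0.90), and *Adamts5* was most like *Csgalnact1*, *Aplp2* (0.91 each) and *Foxc1* (0.90). *Adamts4* was most like *Denn2b* (0.93), *Gria3* (0.87) and *Lama4* (0.86), and *Adamts9* was most like *Npr3*, *Ppm1l* and *Limch1* (0.89 each). Between members, the highest values were 0.79 for *Adamts1* with *Adamts5*, 0.67 for *Vcan* with *Cd44* and 0.61 for *Adamts1* with *Adamts9*. The libraries share O2 levels and genotypes, and some may share mice, so no p is given.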

How the data were processed

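Poly-A RNA was sequenced by the authors with paired 151-base reads. Per the labels and methods, reads were trimmed with cutadapt, mapped to GRCm38 with STAR and counted per gene with RSEM 1.3.3. The authors deposited RSEM's expected counts as whole numbers for 55491 rows, of which 4 are transgenes, without normalization. Serum is given as 10% in the labels and 1% in the methods.

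Counts were filtered (filterByExpr), TMM-scaled and tested with edgeR 4.0.16 in R 4.3.3, with 1 coefficient per group. Comparisons of Ctrl and cKO used 12 libraries (15850 genes), and those with gesicles or averaged over the 3 arms used 18 (16174 genes). Standard errors are |log2 fold change| over the square root of F, and intervals use the t distribution. Levels are CPM scaled by TMM factors of all 18 libraries, divided by the union of exons (GENCODE M21) where genes are compared. The floor of 3 counts covers counting error only. Alternatives were DESeq2 1.42.0, RLE factors, other filters, the replicate block, other sets of libraries and each library left out. Offsets for GC content and exon length, sex read from Xist, and the Ctrl and cKO arms alone were chosen after seeing the data.

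The paper names a paired design. Same-numbered libraries deviated together from their group means in Ctrl across O2 (r = 0.32, 0.331 and 0.581) and between Ctrl and gesicle-treated cells (r = 0.267 to 0.588), not in every pair elsewhere, and the labels do not tie numbers to mice. P-values treat libraries as separate samples. Promoters are RefSeq's, GRCm38.p6, matched for 6 of the 10 genes. The simulated-data test of the scripts was run first. The members and gene lists were chosen with earlier results of these data known. Listed genes are named where called, at most the 4 with the largest change per sublist, and likeness is Pearson r of log2(CPM + 0.5), the 3 highest genes each.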

Additional observations from a re-analysis of the deposited data

Results flagged for a closer look

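Counts appeared in 2 of the transgene rows that no comparison uses, above the level in Ctrl libraries, where these rows were at 0. The eGFP row reached 5 counts in a cKO library and had counts in 5 of the 6 cKO libraries. The tdTomato row reached 3 counts in a gesicle-treated library, which is the floor, and had counts in 5 of the 6 gesicle-treated libraries.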

How the results depend on the processing

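*Has1* in 1% against 20% O2 averaged over the arms was called in every setting tried (log2 fold change −1.51 to −1.14, edgeR or DESeq2 adjusted p up to 0.0484). *Vcan* crossed the threshold with several settings, so that 3 members were called in that comparison with DESeq2 (*Vcan* adjusted p = 0.0162), RLE factors (0.0488), no filter (0.0256), a filter of CPM above 1 in 3 libraries (0.0479), the replicate block (0.0171) and DESeq2 with that block (0.000881). In the order given, these settings called 1964, 1719, 1811, 1408, 1947 and 2129 of all genes, against 1697 in the main fit. The genes tested were 16174, but 29738 with no filter and 13423 with the CPM filter. Leaving out 1 library gave 1 to 3 members called, beside 1492 to 2039 of all genes. The Ctrl and cKO arms alone, a setting chosen after seeing the data, gave 2 members without *Adamts1* and 3 with the replicate block. Those fits called 1124 and 1221 of 15850 genes.

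In single arms, the number of members called for O2 rose from 0 to 2 in Ctrl (*Vcan*, −0.86, and *Adamts1*, −0.88), 3 in cKO and 1 in gesicle-treated cells (*Has1*, −1.24) with DESeq2 and the replicate block. In cKO it was 1 with DESeq2 (*Has1*), 1 with the offsets and the replicate block (*Vcan*, −0.69), and 0 to 1 with 1 library left out (*Vcan*, −1.27, adjusted p = 0.0336, without cKO 20% O2 replicate 2). In cKO against Ctrl averaged over O2, *Vcan* was the 1 member called. That number was 0 with the replicate block (*Vcan* −0.96, adjusted p = 0.085), 0 with the offsets and the replicate block (−0.66, 0.0748), 0 with sex as a covariate, 0 in the fit of 18 libraries, 0 with the libraries summed, and 0 to 1 with 1 library left out. The replicate block moved no other call of a member in edgeR. For Ctrl against cKO, the libraries share only a number. Within cKO and within gesicle-treated cells, the presence of *Xist* counts also matched by number across O2, but the labels do not tie numbers to mice.

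The averaged O2 values that changed sign with the offsets were 0.047 for *Cd44*, 0.028 for *Adamts4* and 0.227 for *Adamts9*, and 0.055, 0.040 and 0.223 with the offsets and the replicate block. In cKO against Ctrl in 1% O2, *Adamts9* changed from −0.22 to 0.25 with the offsets, 0.32 with the offsets and the replicate block, and 0.41 with sex as a covariate. With 1 library left out, signs changed for *Adamts4* (−0.23 to 0.064) and *Adamts9* (−0.18 to 0.11) in O2 averaged, *Adamts9* in cKO against Ctrl in 1% O2 (−0.72 to 0.14), *Has1* in cKO against Ctrl averaged (−0.22 to 0.33) and *Vcan* in the difference of response (−0.51 to 0.23, without Ctrl 1% O2 replicate 2). The causes were not tested.

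Of the pathway calls in cKO against Ctrl averaged, *Cspg4*, *Furin* and *Chst3* were lost with the replicate block and with sex as a covariate, and *Furin*, *Chst3*, *Adamts6* and *Chpf2* with summed libraries. The number of all genes called moved by over 1.5 times with the setting. With the 1.5-fold minimum kept and no single library left out, it was 298 (293 to 962) for O2 in Ctrl, 333 (84 to 1076) in cKO, 390 (120 to 1228) in gesicle-treated cells and 1697 (1124 to 2129) averaged. For cKO against Ctrl it was 55 (1 to 473) in 20% O2, 6 (0 to 302) in 1% O2 and 599 (25 to 1243) averaged, and for gesicles 4 (0 to 74), 0 (0 to 9) and 8 (6 to 121). DESeq2 or DESeq2 with the replicate block gave the highest value of each of these ranges. Without the fold minimum, 3980 genes passed for O2 averaged. The split of the averaged cKO calls was 174 higher and 425 lower, and 234 and 303 with the offsets. The depth of cKO 1% O2 replicate 1 limits the low genes *Has1*, *Adamts4* and *Adamts9* the most, and *Acan* and *Has3* were under or near the floor.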
